A study of Mus musculus with 6 samples.

Results

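The genes of cholesterol and fatty acid synthesis were followed by RNA-seq in the epidermis of newborn mouse back skin, in 6 libraries, as a set of 30 genes named by symbol, all of which were found among the 24014 genes of the count tables. They comprise 17 enzymes of sterol synthesis, 6 genes of sterol control and handling, and 7 genes of fatty acid synthesis. The blister group is 3 libraries of epidermal cells from skin in which a suction blister was healing, and it was set against 3 libraries of epidermal cells from control skin, all from newborn mice and collected on postnatal day 2 (P2); strain, genotype and the age at suction are not stated in the labels. Suction lifts the epidermis off the dermis, and the epidermis of both groups was then detached with trypsin, minced and filtered, so that hair follicles, sebaceous glands and adhering dermal cells could come with it. Whether each library stands for a different animal is not stated, so a p-value here weighs a difference against library-to-library spread that may be technical.

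Cells make cholesterol from acetyl-CoA through mevalonate, isoprenoid units, squalene and lanosterol, and they make fatty acids from the same precursor through malonyl-CoA. Transcription factors of the SREBP family, encoded by Srebf1 and Srebf2, switch on both branches when membrane sterol is low, after SCAP has carried them out of the endoplasmic reticulum and unless an INSIG protein holds SCAP back. In epidermis both lipids are secreted by granular keratinocytes and, with ceramides, fill the spaces between the cells of the stratum corneum as the water barrier. Sebaceous glands, which hang on the hair follicles, are a further site of strong lipid synthesis in skin.

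The libraries held 7600567 to 15912863 counts. Libraries correlated across genes, on log2 CPM, at Pearson's r of 0.957 to 0.975 within blister, 0.967 to 0.988 within control and 0.883 to 0.957 between the groups. Keratins of the epidermis were abundant throughout, with the basal keratin Krt5 between 16549.5 and 23175 CPM in blister and between 11011 and 11919 CPM in control libraries (CPM are counts per 1000000, scaled by the TMM factors of edgeR). Markers of other cell types moved with the groups or with single libraries. All 8 sebaceous gland markers had a negative log2 fold change, blister over control, 2 of them called, with a summed level of 2303 to 3132 CPM in blister and 2366 to 4261 CPM in control libraries. Krt79, not called, made up most of that sum, at 1906 to 2586 CPM in blister and 1915 to 3534 CPM in control libraries. Hair follicle markers summed to 222 to 984 CPM in blister and 2572 to 4833 CPM in control libraries, with 9 of 10 called lower. Dermal fibroblast markers summed to 631 to 1449 CPM in blister and 1048 to 7261 CPM in control libraries, with 5 of 10 called lower. Postn, with a log2 fold change of 0.02, made up 599 of 738 CPM in blister 1 and 426 of 631 CPM in blister 3. Neutrophil markers summed to 244 to 749.7 CPM in blister and 4.55 to 12.0 CPM in control libraries, with 5 of 5 tested called higher. Control 3 stood out by its dermal RNA and by skeletal muscle RNA, whose markers summed to 134 CPM there and to 0.910 to 2.75 CPM in the other 5 libraries, and adipocyte markers reached 216 CPM in blister 2 and 195 CPM in control 3 against 15.1 to 44.6 CPM elsewhere, with Lep at 0 in all 6. Blister 1, blister 2 and control 1 had high Xist, and the other libraries had high Ddx3y, so that sex-linked RNA was not balanced between the groups. In bulk tissue, fewer cells of a type and less RNA per cell cannot be told apart.

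The promoters of members at which the results below turn are shown first, since synthesis of sterols is controlled at this level. RefSeq promoter windows of build GRCm38.p6, from 250 bases before to 50 bases after the gene start, were matched by symbol for 23 of the 30 members. Shown are Ebp and Sc5d, which rose in blister libraries, Soat1, which fell, and Hmgcs1, the classical SREBP target among them. Capitals mark CCAAT boxes (CCAAT, read as ATTGG where the box is on the other strand) and, in Hmgcs1, the core of a sterol regulatory element (TCACNCCAC). No marked match overlaps another.
Ebp (chrX:8193463-8193762, minus strand): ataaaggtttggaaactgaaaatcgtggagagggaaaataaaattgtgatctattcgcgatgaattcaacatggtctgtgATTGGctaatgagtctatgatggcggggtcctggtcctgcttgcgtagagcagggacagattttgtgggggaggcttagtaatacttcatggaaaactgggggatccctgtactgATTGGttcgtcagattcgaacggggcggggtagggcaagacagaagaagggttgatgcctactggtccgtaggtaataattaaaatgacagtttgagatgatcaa
Sc5d (chr9:42264251-42264550, minus strand): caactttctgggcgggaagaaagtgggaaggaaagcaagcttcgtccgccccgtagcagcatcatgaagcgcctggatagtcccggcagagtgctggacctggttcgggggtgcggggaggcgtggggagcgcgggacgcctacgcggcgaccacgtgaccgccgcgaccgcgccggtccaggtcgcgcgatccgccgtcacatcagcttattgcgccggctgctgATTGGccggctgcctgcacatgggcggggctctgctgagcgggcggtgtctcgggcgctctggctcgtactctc
Soat1 (chr1:156474279-156474578, minus strand): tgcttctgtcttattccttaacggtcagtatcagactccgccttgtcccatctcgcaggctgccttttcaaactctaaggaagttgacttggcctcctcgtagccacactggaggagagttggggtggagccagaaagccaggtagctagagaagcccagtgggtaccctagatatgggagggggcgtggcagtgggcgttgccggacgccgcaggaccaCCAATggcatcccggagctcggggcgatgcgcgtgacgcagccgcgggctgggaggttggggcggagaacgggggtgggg
Hmgcs1 (chr13:119690101-119690400, plus strand): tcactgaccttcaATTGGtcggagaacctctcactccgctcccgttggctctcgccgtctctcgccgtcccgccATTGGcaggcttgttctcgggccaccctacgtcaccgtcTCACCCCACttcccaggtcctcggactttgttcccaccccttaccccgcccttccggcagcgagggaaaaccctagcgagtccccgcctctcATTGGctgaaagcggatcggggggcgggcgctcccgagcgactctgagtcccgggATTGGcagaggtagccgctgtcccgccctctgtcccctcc
The core TCACNCCAC was found, on either strand, in Hmgcs1 and in no other member with a window, and in 1.24% of all 32851 promoter windows. Only these exact letters within the window were searched, so a variant element or one outside the window would be missed. A CCAAT box, the letters bound by NF-Y, stood in 20 of the 29 windows of these members (68.97%, in 19 of the 23 genes), against 37.41% of all windows. A GC box (GGGCGG, the letters bound by Sp1, either strand) stood in 23 of the 29 windows (79.31%), against 35.66% of all. The E-box CACGTG, which reads the same on both strands, stood in 6 of the 29 windows (20.69%), Sc5d included, against 7.15% of all. Ebp, Sc5d and Soat1 each held at least 1 CCAAT box and at least 1 GC box. Sqle and Fads1, the other called members, are not among the 23 and are not compared here.

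Setting blister against control asks how lipid synthesis genes of a healing epidermis differ from those of undisturbed epidermis of the same age. Few of the members were called, and a member that was not called may still differ. All 30 passed the filter on low counts, and 3 were called higher (Sqle, Ebp and Sc5d) and 2 lower (Soat1 and Fads1) in blister libraries at an edgeR adjusted p under 0.05 over 14028 genes. These are 10.0% and 6.67% of the members, where 9.74% of all tested genes were called higher and 11.6% lower (21.3% in either direction). The share called higher was near the background and the share called lower was below it. Most enzymes of sterol synthesis had small positive log2 fold changes, Srebf1 and Srebf2 had values near 0 and were not called, and the largest differences among members were the falls of Fads1, a desaturase of polyunsaturated fatty acids (2.75-fold lower), and Soat1, which esterifies cholesterol for storage (2.64-fold lower).

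**Figure D1:**
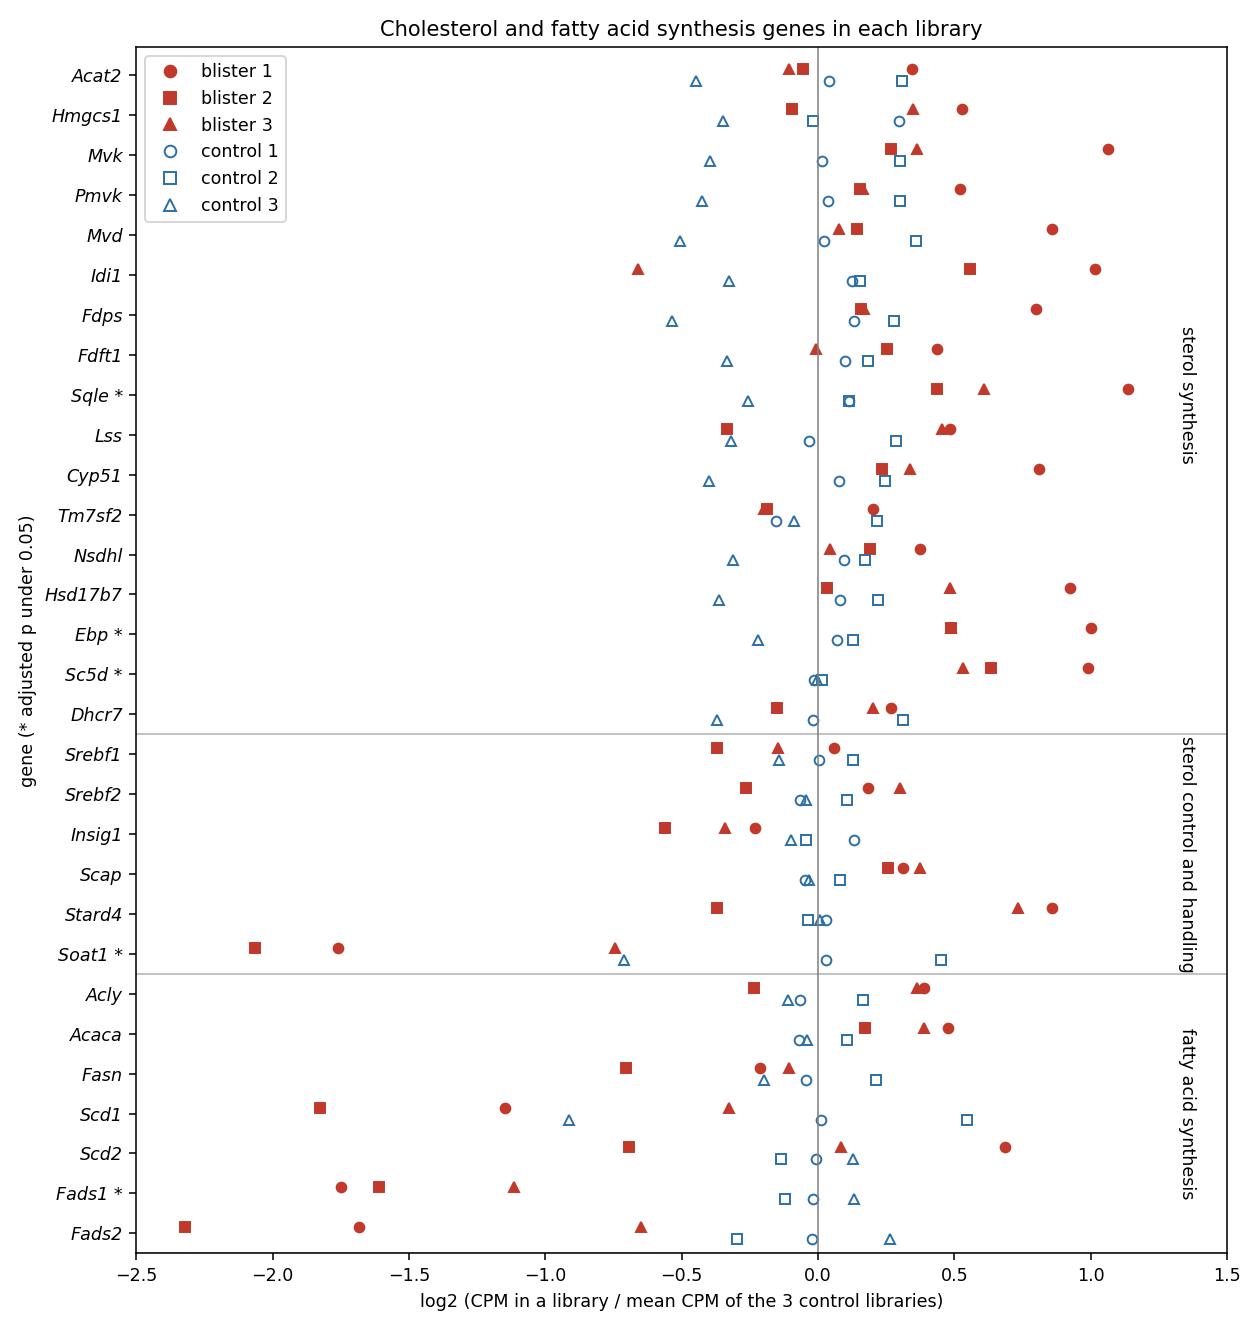
Level of each of the 30 members in each library, as log2 of its CPM (counts per 1000000, TMM-scaled) over the mean CPM of the 3 control libraries, with blister libraries as filled red marks and control libraries as open blue marks (1, circle; 2, square; 3, triangle), and asterisks at the 5 genes with an edgeR adjusted p under 0.05. Blister 1 lies furthest right in 15 of the 17 sterol synthesis genes and control 3 furthest left in 13, while Soat1, Scd1, Fads1 and Fads2 have blister libraries far to the left; blister 2 and 3 coincide for Ebp.

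In sterol synthesis, 3 of 17 enzymes rose (17.65%, against 9.74% of all tested genes called higher) and 0 fell (against 11.6% called lower). The median log2 fold change over the 17 was 0.41, against 0.00 over all tested genes, with values from -0.05 to 0.76. Of the 17, 16 had a positive value (94.12%, against 50.1% of all tested genes). Scaling by library size alone, which moved the median of all genes to -0.25, gave a median of 0.14 and turned Acat2, Fdft1, Lss, Nsdhl and Dhcr7 negative. Groups did not overlap, with blister higher, for the same 3 enzymes, a state found in 21.4% of all tested genes. In the other 14, the libraries of the groups overlapped.

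Sqle, squalene epoxidase, oxidises squalene and is a rate-limiting step after mevalonate. It had 322, 198 and 224 CPM in blister 1, 2 and 3, against 159, 159 and 123 CPM in control 1, 2 and 3. Each blister library was above each control, and blister 1 was the furthest. The gene rose 1.69-fold (edgeR adjusted p = 0.0388, with a log2 fold change of 0.76 ± 0.21 SE). The call was lost without blister 1 (edgeR adjusted p = 0.0962), control 1 (0.0961), control 2 (0.0823) or control 3 (0.112), with log2 fold changes of 0.54 to 0.90 when any 1 library was left out.

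Ebp, the sterol isomerase that moves the double bond of the sterol ring, had 109, 76.7 and 76.7 CPM in blister libraries, against 57.5, 59.8 and 46.9 CPM in control libraries. Groups were apart, with blister 2 and 3 close to each other and blister 1 above them. Its rise was 1.60-fold (log2 fold change of 0.68 with an SE of 0.18; edgeR adjusted p = 0.0343), and the call was lost without blister 1 (0.0879), control 1 (0.0958), control 2 (0.0697) or control 3 (0.100).

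Sc5d, the desaturase that acts just after Ebp, had 82.0, 64.0 and 59.7 CPM in blister libraries, against 40.9, 41.7 and 41.2 CPM in control libraries. The controls were nearly equal, with an SD of 0.424 CPM, and all lay below the lowest blister library. Sc5d rose 1.66-fold (edgeR adjusted p = 0.0153, with a log2 fold change of 0.73 ± 0.14 SE), and the call was lost on leaving out control 1 (0.0631) and no other single library. Ebp and Sc5d catalyse adjoining steps near the end of the pathway, whereas Dhcr7, the reductase that follows, showed overlapping groups, at 125, 93.5 and 119 CPM in blister libraries against 102, 129 and 80.1 CPM in control libraries (log2 fold change of 0.12 with an SE of 0.19; edgeR adjusted p = 0.677).

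The remaining 13 sterol enzymes were not called. Hmgcs1, the synthase that commits acetyl units to mevalonate and whose promoter is shown above, had 14.4, 9.36 and 12.7 CPM in blister libraries, against 12.3, 9.87 and 7.85 CPM in control libraries (edgeR adjusted p = 0.410, with a log2 fold change of 0.29 ± 0.24 SE). Cyp51, the demethylase of lanosterol, had 235, 158 and 169 CPM in blister libraries, against 142, 159 and 102 CPM in control libraries (0.48 ± 0.21, edgeR adjusted p = 0.137). In both genes blister 2 was below at least 1 control library. The mevalonate enzymes Acat2, Mvk, Pmvk and Mvd had log2 fold changes of 0.08, 0.61, 0.29 and 0.41. The isoprenoid and squalene enzymes Idi1, Fdps and Fdft1 had 0.46, 0.41 and 0.24, and the enzymes of the sterol rings Lss, Tm7sf2, Nsdhl and Hsd17b7 had 0.25, -0.05, 0.21 and 0.53. Their edgeR adjusted p ran from 0.120 for Mvk to 0.873 for Tm7sf2. Idi1, which isomerises the isoprenoid unit, was the most uneven, at 186, 136 and 58.3 CPM in blister libraries against 101, 103 and 73.5 CPM in control libraries, and it was called without blister 3 (log2 fold change 0.81, edgeR adjusted p = 0.0317).

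The positive values of the sterol enzymes were uneven over the libraries. Blister 1 had the highest level of the 6 libraries in 15 of 17 enzymes and the highest of the blister libraries in all 17, and control 3 had the lowest of the 6 in 13 of 17. Summed over the 17 enzymes, the level was 2269, 1539 and 1568 CPM in blister libraries against 1389, 1554 and 1035 CPM in control libraries, so that blister 2 lay just below control 2. The median log2 fold change was 0.16 without blister 1 and 0.20 without control 3, against 0.41 with all libraries, and 0.55 at most when another library was left out. The sum of 5 markers of the suprabasal epidermis, Krt1 and Krt10 the most abundant, was likewise highest in blister 1 and lowest in control 3, with 137933, 47134 and 75622 CPM for blister 1, 2 and 3 against 44589.9, 69485 and 42205 CPM for control 1, 2 and 3, and control 3 held the dermal and muscle RNA given above. Krt1 and Krt10 made up most of that sum, and Lor, a late marker of the same list, was called lower, at 1854, 1165 and 2142 CPM in blister libraries against 3361, 4472 and 2557 CPM in control libraries (edgeR adjusted p = 0.0418). Their part in these values was not tested.

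Levels can be compared between enzymes only per length, here as CPM per kilobase of merged exons (GENCODE M21). These lengths are from build GRCm38, while the counts name NCBIM37 and mm9, so a length may differ from that of the gene model counted. On that scale Fdps, the farnesyl diphosphate synthase, was the highest of the 17 sterol enzymes in both groups, at 141 ± 38.1 in blister libraries and 107 ± 29.3 in control libraries (SD, n = 3 each). Sqle followed at 89.97 ± 23.8 in blister and 53.2 ± 7.56 in control libraries, and Mvk came next in blister libraries at 62.0 ± 19.9. Hmgcs1 was the lowest in both groups, at 3.49 ± 0.738 in blister and 2.87 ± 0.636 in control libraries, followed in blister libraries by Tm7sf2, a sterol reductase, and in control libraries by Sc5d. Tm7sf2 stood at 9.56 ± 1.57 in blister and 9.89 ± 1.40 in control libraries, and Sc5d at 14.1 ± 2.43 in blister and 8.48 ± 0.0871 in control libraries. Between these ends most enzymes lay within their spread of a neighbour. Fdps shares 77.36% of its exon length with the annotated gene Gm43738, which is not a row of the tables. Fdft1 shares 20.93% with Ctsb on the opposite strand, which is a row. Hmgcs1 shares 16.0% with Gm48342 on the opposite strand, which is not. These levels are uncertain where reads of overlapping genes were not separated.

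**Figure D2:**
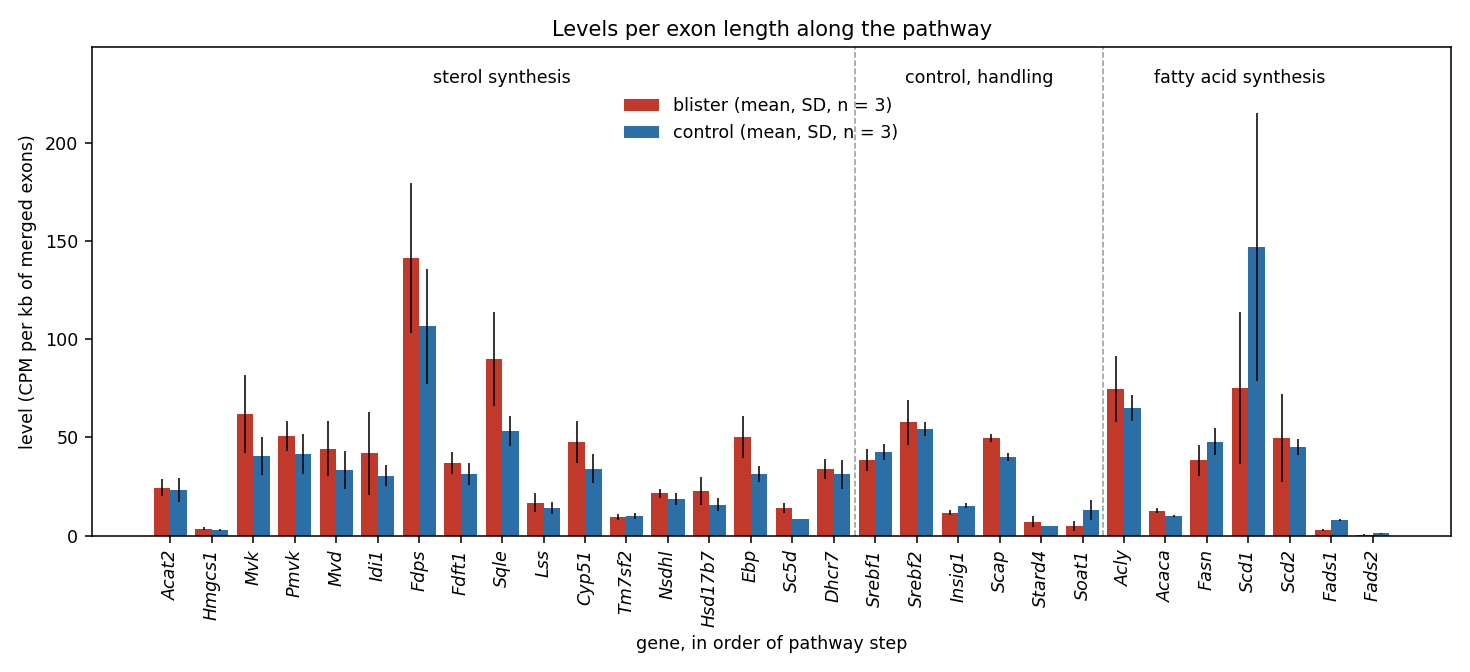
Mean level of each member in CPM per kilobase of merged exons, with SD over 3 libraries, blister in red to the left of control in blue, ordered by pathway step within the 3 groups of genes. Fdps (141 in blister, 107 in control) and Scd1 (75.0 in blister, 147 in control) are the tallest bars of their groups of genes, and Hmgcs1 and Fads2 are among the lowest.

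The regulators of the pathway were not called. Srebf2, which encodes the SREBP that mainly drives sterol genes, had 312, 229 and 338 CPM in blister libraries, against 262, 295 and 267 CPM in control libraries (log2 fold change of 0.09 with an SE of 0.17; edgeR adjusted p = 0.711). Srebf1, whose product mainly drives fatty acid genes, had 190.2, 142 and 165 CPM in blister libraries, against 183, 199.7 and 166 CPM in control libraries (-0.14 ± 0.14, edgeR adjusted p = 0.495). Groups overlapped in both genes, with blister 2 the lowest library in each. Counts per gene do not separate the Srebf1 isoforms.

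Insig1, which retains SCAP and is itself an SREBP target, and Scap stood on opposite sides of their controls without being called. Insig1 had 34.8, 27.7 and 32.3 CPM in blister libraries, against 44.7, 39.6 and 38.2 CPM in control libraries (edgeR adjusted p = 0.0825, with a log2 fold change of -0.37 ± 0.13 SE). Scap had 210.3, 203 and 220.0 CPM in blister libraries, against 164, 179 and 166 CPM in control libraries (0.32 ± 0.11, edgeR adjusted p = 0.0694). Groups did not overlap in either gene, a state found with blister lower in 23.2% and with blister higher in 21.4% of all tested genes. Insig1 is a target of SREBP as the sterol enzymes are, and its value had the opposite sign to that of 16 of the 17 enzymes.

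Of the 6 genes of sterol control and handling, 1 fell (16.67%, against 11.6% of all tested genes) and 0 rose (against 9.74%). Soat1, the acyltransferase that makes cholesterol esters, had 32.1, 26.0 and 65.0 CPM in blister libraries, against 111, 149 and 66.5 CPM in control libraries. Blister 3 and control 3 nearly touched, and the other libraries were widely apart. Soat1 fell 2.64-fold (log2 fold change of -1.40 with an SE of 0.40; edgeR adjusted p = 0.0446), a call lost without blister 1 (0.148), blister 2 (0.112), control 1 (0.110) or control 2 (0.122). Stard4, a carrier of free cholesterol between membranes, had 47.4, 20.2 and 43.5 CPM in blister libraries, against 26.7, 25.5 and 26.3 CPM in control libraries (0.51 ± 0.29, edgeR adjusted p = 0.225). Blister 2 was the lowest of the 6 libraries in Stard4, and without it the gene was called higher (log2 fold change 0.81, edgeR adjusted p = 0.0174).

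In fatty acid synthesis, 1 of 7 genes fell (14.29%, against 11.6% of all tested genes called lower) and 0 rose (against 9.74% called higher). The median log2 fold change was -0.32, with 3 positive and 4 negative values, from -1.46 to 0.35. Acly, which splits citrate into acetyl-CoA, had a log2 fold change of 0.20 ± 0.19 SE, with 393, 255 and 386 CPM in blister libraries against 286, 336 and 277 CPM in control libraries. Acaca, the carboxylase that makes malonyl-CoA and sets the rate of the branch, had 132, 107 and 124 CPM in blister libraries against 90.4, 102 and 92.5 CPM in control libraries. Groups were narrowly apart for Acaca, and the difference was not called (0.35 ± 0.12, edgeR adjusted p = 0.0730). It was called without blister 2 (edgeR adjusted p = 0.0466) and by DESeq2 (adjusted p = 0.0431). Fasn, the synthase that builds palmitate, had 416, 296 and 446 CPM in blister libraries against 466, 558 and 419.5 CPM in control libraries (-0.32 ± 0.19, edgeR adjusted p = 0.253), with overlap through blister 3 and control 3.

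The desaturases differed from gene to gene. Scd1, the stearoyl-CoA desaturase of sebaceous glands and fat, had 320.5, 200.2 and 567 CPM in blister libraries, against 717, 1038 and 378 CPM in control libraries. Blister 3 was above control 3, and the other blister libraries were below all controls (edgeR adjusted p = 0.154, with a log2 fold change of -0.97 ± 0.45 SE). Scd2, its neighbouring relative, had 397, 152 and 262 CPM in blister libraries, against 246, 225 and 269.9 CPM in control libraries (0.13 ± 0.31, edgeR adjusted p = 0.777). The highest and the lowest of the 6 values of Scd2 were both blister libraries. The Scd genes resemble each other in sequence, so reads may be shared or split between them.

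Fads1, which adds a double bond in the making of arachidonic acid, had 8.26, 9.09 and 12.8 CPM in blister libraries, against 27.4, 25.5 and 30.4 CPM in control libraries. Every blister library was below every control, by a gap wider than the spread of either group. Fads1 fell 2.75-fold (log2 fold change of -1.46 with an SE of 0.20; edgeR adjusted p = 0.00740), and leaving out any single library kept the call (adjusted p 0.00254 to 0.0340). Fads2, which acts before it, was near the lower limit of what these depths resolve, at 14, 6 and 31 counts in blister libraries against 53, 48 and 87 counts in control libraries. Its levels were 1.28, 0.826 and 2.63 CPM in blister libraries, against 4.07, 3.36 and 4.95 CPM in control libraries. Groups did not overlap, and the difference was not called (-1.34 ± 0.42, edgeR adjusted p = 0.0590) but was without blister 3 (0.0152).

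Fads3, a relative that lies in the same gene cluster on chromosome 19 (RefSeq, GRCm38.p6), is not a member and belongs to the list of further fatty acid genes. It had 8.53, 7.02 and 22.4 CPM in blister libraries, against 49.0, 59.2 and 47.9 CPM in control libraries. Fads3 fell 4.05-fold (edgeR adjusted p = 0.0172, with a log2 fold change of -2.02 ± 0.40 SE), a call lost without blister 1 (0.0629), control 1 (0.0524) or control 2 (0.0527). In Fads1, Fads2 and Fads3 each blister library was below each control, a state found in 23.2% of all tested genes. Blister 3 was the highest of the blister libraries in each of these genes.

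**Figure D3:**
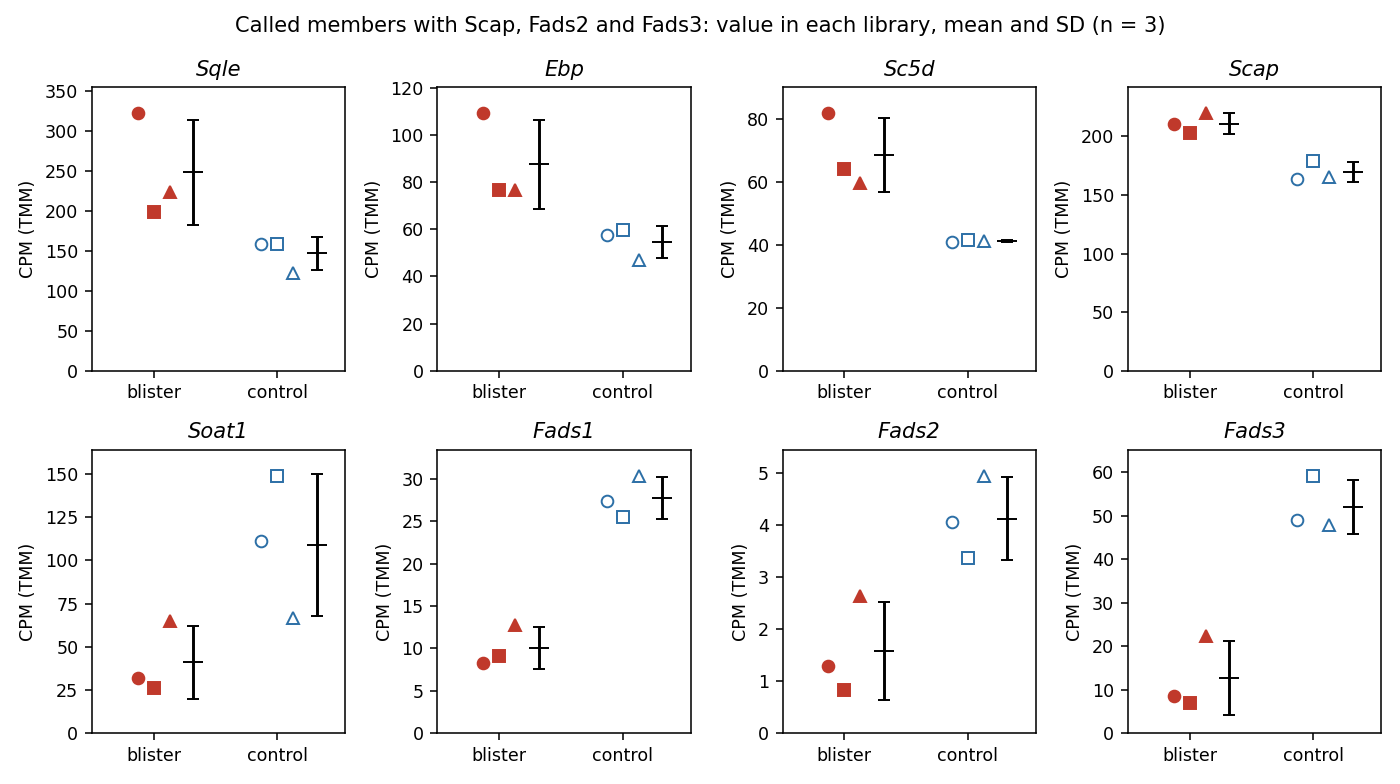
CPM of the 5 called members (Sqle, Ebp, Sc5d, Soat1, Fads1) with Scap, Fads2 and Fads3, in blister libraries (filled red, left) and control libraries (open blue, right), with library 1 as a circle, 2 as a square and 3 as a triangle, and the mean and SD of 3 libraries in black. Groups do not overlap in any panel, although blister 3 and control 3 are only 65.0 and 66.5 CPM for Soat1.

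**Figure D4:**
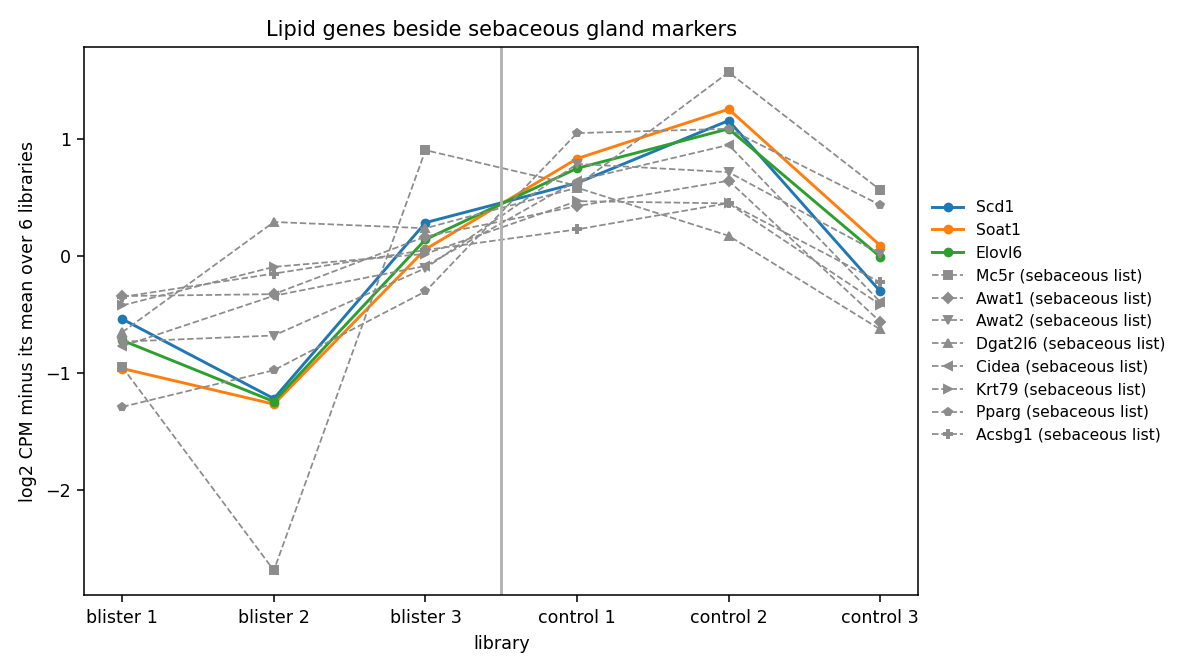
Log2 CPM of Scd1, Soat1 and Elovl6 (solid, coloured) and of the 8 sebaceous gland markers (dashed, grey) in each library, each gene centred on its mean over the 6 libraries; lines only link the points of a gene, and libraries of a group have no order. The coloured genes lie lowest in blister 2 and highest in control 2, with control 3 between, and the 8 markers are likewise highest in control 1 or control 2 but, except for Mc5r, not lowest in blister 2.

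Scd1 and Soat1 were uneven over the libraries in a way that markers of the sebaceous gland matched in part, as the plot of lipid genes beside sebaceous gland markers shows. Awat1 and Awat2 are wax synthases of sebocytes. Awat1 had 32.1, 32.5 and 45.7 CPM in blister libraries, against 54.7, 63.6 and 27.6 CPM in control libraries, and Awat2 had 8.63, 8.95 and 13.3 CPM in blister libraries, against 24.7, 23.5 and 14.5 CPM in control libraries. Control 3 was the lowest control for both markers, as it was for Scd1 and Soat1, and blister 3 the highest blister library. The lowest library differed, being blister 2 for Scd1 and Soat1, but blister 1 for 6 of the 8 markers, Awat2 among them, control 3 for Awat1 and blister 2 for Mc5r. Of the list of 8 sebaceous markers, none of which was at 0 in any library, Awat2 and Pparg were called lower and 6 were not called, with a median log2 fold change of -0.64. The summed level of the adipocyte markers was highest in blister 2 and control 3, while Retn of that list was highest in control 1. The part of the sebaceous glands in the values of Scd1 and Soat1 was not tested.

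Of 24 further genes of sterol synthesis, uptake and export, 23 were tested, 3 rose (13.04%, against 9.74% of all tested genes) and 1 fell (4.35%, against 11.6%), with a median log2 fold change of -0.19. Mylip, a ubiquitin ligase, fell 1.71-fold, at 16.1, 20.0 and 24.6 CPM in blister libraries against 33.8, 29.6 and 40.6 CPM in control libraries (log2 fold change -0.78 ± 0.20, edgeR adjusted p = 0.0321). Each blister library was below each control. Npc2, which carries cholesterol out of lysosomes, rose 1.61-fold (212 ± 36.3 CPM in blister against 131 ± 5.53 CPM in control libraries, SD, n = 3 each, edgeR adjusted p = 0.0187), and Por, the reductase that supplies electrons to Sqle and Cyp51, rose 1.42-fold (143 ± 16.0 CPM in blister against 100.2 ± 12.8 CPM in control libraries, edgeR adjusted p = 0.0402). When 1 library was left out, Mylip was called in 1 of 6 fits (adjusted p up to 0.0983, without control 3), Por in 1 (0.134, without control 1) and Npc2 in 4 (0.0770, without control 1). Msmo1, the sterol methyl oxidase, was not called (log2 fold change 0.02, edgeR adjusted p = 0.960).

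Of 31 further genes of fatty acid synthesis, elongation, activation and storage, 30 were tested, 1 rose (3.33%, against 9.74% of all tested genes) and 3 fell (10.0%, against 11.6%), with a median log2 fold change of -0.17. Fabp5, the fatty acid-binding protein of epidermis, rose 4.37-fold, with 3771, 2196 and 2418 CPM in blister libraries against 646, 831 and 442 CPM in control libraries (log2 fold change of 2.13 with an SE of 0.30; edgeR adjusted p = 0.00769). The call held whichever single library was left out. Elovl5, an elongase of polyunsaturated fatty acids, fell 1.80-fold (48.2 ± 13.8 CPM in blister against 87.0 ± 18.4 CPM in control libraries, SD, n = 3 each, edgeR adjusted p = 0.0446), and Acss2, which makes acetyl-CoA from acetate, fell 1.82-fold (14.7 ± 1.68 CPM in blister against 26.8 ± 7.43 CPM in control libraries, edgeR adjusted p = 0.0359). Leaving out single libraries in turn, Elovl5 kept its call in 2 of 6 fits (highest edgeR adjusted p 0.138) and Acss2 in 1 of 6 (0.107).

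The elongases of saturated chains were not called. Elovl6, which extends palmitate, had 152, 106 and 276 CPM in blister libraries, against 421, 532 and 249 CPM in control libraries (edgeR adjusted p = 0.0698, with a log2 fold change of -1.17 ± 0.39 SE). Blister 3 was above control 3, as in Scd1, and the call appeared without blister 3 (0.0204). Elovl4, which makes the very long chains of barrier ceramides, had 793, 438 and 746 CPM in blister libraries, against 733, 733 and 430.2 CPM in control libraries (0.06 ± 0.28, edgeR adjusted p = 0.893). In Elovl4, blister 2 and control 3 were low and close to each other, and the other 4 libraries were well above them.

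Sex-linked RNA was the other split between libraries. Among the 3 libraries with high Xist, which were 2 of blister and 1 of control, the log2 ratio of mean CPM, blister over control, was 0.71 for Sqle, 0.69 for Ebp, 0.83 for Sc5d, -1.94 for Soat1 and -1.66 for Fads1. Among the 3 libraries with low Xist, 1 of blister and 2 of control, it was 0.68, 0.53, 0.53, -0.72 and -1.12 in the same order of genes. The sign was the same on both sides for the 5 called members. It could not have differed, since the groups did not overlap in any of these genes. With Xist level (log2 CPM) added to the fit, Sc5d and Fads1 were called, while Sqle had an edgeR adjusted p of 0.0717, Ebp of 0.0652 and Soat1 of 0.0670. Among the 17 sterol enzymes, 16 were positive in the high group and 14 in the low group, and 13 had the same sign in both. Blister 1, highest of the 6 libraries in 15 enzymes, is in the high group. Control 3, lowest of the 6 in 13 enzymes, is in the low group. The split therefore cannot tell sex-linked differences from that unevenness, and the share over all genes was not computed.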

How the data were processed

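RNA of 6 libraries was sequenced after oligo-dT purification and TruSeq library preparation, per the labels' protocols. Reads were aligned with HISAT2 2.0.0 and counted per gene with featureCounts, with NCBIM37 and mm9 named as builds, per the submitters' processing notes; no source used here states the strand setting. The values are raw counts per gene symbol as deposited by the authors, 1 table per library. From these, edgeR 4.0.16 (R 4.3.3) was run with TMM scaling, filterByExpr by group (minimum count 10, minimum total 15) and quasi-likelihood F-tests, two-sided, with Benjamini-Hochberg adjustment over the 14028 genes tested and a threshold of 0.05. CPM are counts per 1000000 of library total times TMM factor. Fold changes are blister over control.

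The members and lists were chosen with earlier results of these data known. Values in every library are given for called members and for 12 members, and for Elovl4 and Elovl6, whatever their test; of the further pathway genes the 5 called with the largest change per list were to be named. A few further genes are counted in their list and not reported here by name. Msmo1 and the sets in the figures were chosen after their values were seen. Alternatives used DESeq2 1.42.0 and limma 3.58.1. The fit was tested on simulated data with known changes. Plots were drawn with matplotlib 3.10.9.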

Additional observations from a re-analysis of the deposited data

How the results depend on the processing

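Leaving out 1 library at a time gave 785 to 4061 genes called (2993 with all 6), 0 to 4 sterol synthesis genes called higher, 0 to 1 genes of sterol control and handling called higher and 0 to 1 lower, and 0 to 1 fatty acid genes called higher and 1 to 2 lower. The low end came without control 1, where no sterol enzyme was called. Without blister 2 and control 3 together, chosen after the data were seen, 1493 genes were called, with 1 sterol enzyme (Sc5d) and 1 handling gene (Stard4) higher, and Acat2 was at -0.0443. With the Xist covariate 1875 genes were called, with 1 sterol enzyme higher and 0 handling genes lower. With library size alone, which moved the median of all genes to -0.25, 1 sterol enzyme was called higher and 2 handling and 2 fatty acid genes lower, and signs turned for Acat2 (-0.18), Fdft1 (-0.0202), Lss (-0.00940), Nsdhl (-0.0484), Dhcr7 (-0.13), Srebf2 (-0.16), Acly (-0.0581), Scd2 (-0.15) and Elovl4 (-0.20), all of them above that median. Elovl4 was at -0.0101 with upper-quartile scaling. Calls split into 988 higher and 1886 lower with upper-quartile scaling and 544 and 2831 with library size alone, against 1367 and 1626. DESeq2 called 1 handling gene (Scap) and 1 fatty acid gene (Acaca) higher and 2 fatty acid genes lower, and limma-voom 2 fatty acid genes lower. The replicate block called 2876 genes and gave 0 handling genes and 2 fatty acid genes lower. Whether same-numbered libraries are paired is not stated. Their deviations from the group mean correlated at 0.21, -0.26 and 0.01, and those of blister 1 and control 2 at 0.34. With 3 libraries per group these values cannot decide whether libraries share an animal or batch. Leaving out 1 library also turned signs of genes with small values, within -0.10 to 0.26 for Acat2, -0.18 to 0.0778 for Tm7sf2, -0.0345 to 0.31 for Dhcr7, -0.0180 to 0.25 for Srebf2, -0.24 to 0.43 for Scd2 and -0.15 to 0.29 for Elovl4. The causes were not tested. Fads1 was called in all 17 alternatives and Sc5d in 16, and of 712 values of named genes 611 kept direction and side of the threshold. Low depth limits Fads2 most.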
